A study of Mus musculus with 2 samples.

Results

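The EGF and neuregulin ligands with their ErbB receptors were followed through the nuclei of young visceral adipose tissue. The family was taken as 9 genes of the 56980 listed in the count matrices, named by symbol and with earlier results of these data known. They were the ligands Nrg4, Nrg2, Btc, Hbegf and Areg and the receptors Egfr, Erbb2, Erbb3 and Erbb4, and all 9 were found in both libraries. The tissue was the gonadal VAT of female C57BL/6J mice aged 2 months, untreated and without any engineered allele named in the sources used here, and the libraries are called replicate 1 and replicate 2 of the VAT young group, each from a VAT specimen of its own. The study counts as many young mice as young VAT libraries but does not tie each library to a mouse. In the main fits, p-values measure how far differences between groups of nuclei vary between these libraries. The overall difference between the libraries is taken out first. Nuclei of the whole tissue were captured, while the labels give the cell type as adipocytes, and the aged and subcutaneous libraries were not analysed here. The question was in which cell types of young fat each ligand and each receptor is found.

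Ligands of this family are made as membrane proteins, cut from the surface by proteases, and bind receptor tyrosine kinases that then pair up and signal through the ERK and PI3K routes. Egfr binds Areg, Hbegf, Btc, Egf and Tgfa, whereas Erbb3 and Erbb4 bind neuregulins, with Nrg4 known as a ligand of Erbb4. Erbb2 has no ligand of its own and acts as a partner of the others, and Erbb3 has little kinase activity. In fat, Nrg4 is known as a factor secreted by adipocytes, above all by thermogenic ones, and Egfr is known in the fibroblast-like progenitors.

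The 9 genes differ widely in size, which matters for nuclear RNA because unspliced transcripts are counted along their introns. On GRCm39 with GENCODE vM39, Erbb4 lies on chromosome 1 from 68071345 to 69147619 on the minus strand and spans 1076 kb, of which exons make up 1.19%. Nrg4 lies on chromosome 9 from 55121336 to 55234128 on the minus strand and spans 112.8 kb, and Egfr lies on chromosome 11 from 16702198 to 16868158 on the plus strand and spans 166.0 kb. Nrg2 spans 180.6 kb, Btc 45.8 kb, Erbb2 25.3 kb, Erbb3 22.4 kb, Hbegf 11.7 kb and Areg 8.84 kb. Erbb4 holds 12 runs of at least 15 adenines in its sense strand, to which an oligo-dT primer could anneal, against 3 each in Nrg4, Egfr and Nrg2, but per kb it holds fewer, 0.0111 against 0.0266, 0.0181 and 0.0166. The annotation puts 8 other genes inside Erbb4 on its own strand, so reads of their bodies cannot be told apart from those of Erbb4 by position alone. Whether counting used the strand is not given in the sources used here, and antisense genes overlap Nrg4 (Fbxo22 among 4), Egfr (Egfros and Eldr), Erbb2 (Mien1 and Gm54986), Nrg2 (Psd2 among 3), Hbegf (Gm41698) and Erbb4 (1 gene), so values of these members may include reads of those genes.

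The longest of these runs is shown because it illustrates what a very long intron offers to a primer. It is intronic, 145.4 kb from the start of Erbb4, at chr1:69002169-69002237, and the capitals mark its 29 adenines.
Erbb4 intron: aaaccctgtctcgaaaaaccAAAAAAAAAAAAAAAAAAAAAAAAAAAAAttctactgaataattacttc

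The 250 bases before the canonical start sites of the 3 genes on which the results turn are shown as well, read from GRCm39 in the direction of the gene. Capitals mark the hexamer AGGTCA, a binding element of nuclear receptors, which was searched on both strands together with the longer TCAAGGTCA and the TATA box TATAAA. The hexamer lies within the longer motif, and no other motifs overlap. The Nrg4 window, at chr9:55190910-55191159, held AGGTCA 2 times, on the opposite strand, and 13.1% of 21770 windows of this length held it at least once. The Egfr window, at chr11:16701948-16702197, and the Erbb4 window, at chr1:69147620-69147869, held none of the motifs, of which TCAAGGTCA was found in 0.432% and TATAAA in 11.9% of all windows.
Nrg4 promoter: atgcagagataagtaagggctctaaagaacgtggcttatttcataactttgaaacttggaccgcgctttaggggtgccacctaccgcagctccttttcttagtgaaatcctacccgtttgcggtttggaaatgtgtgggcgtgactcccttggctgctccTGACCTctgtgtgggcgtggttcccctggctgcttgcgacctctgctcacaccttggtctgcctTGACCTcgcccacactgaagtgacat
Egfr promoter: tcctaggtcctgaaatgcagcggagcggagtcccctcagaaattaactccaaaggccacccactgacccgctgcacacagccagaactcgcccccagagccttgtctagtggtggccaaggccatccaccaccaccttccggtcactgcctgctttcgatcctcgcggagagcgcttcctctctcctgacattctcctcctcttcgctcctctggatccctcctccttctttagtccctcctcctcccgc
Erbb4 promoter: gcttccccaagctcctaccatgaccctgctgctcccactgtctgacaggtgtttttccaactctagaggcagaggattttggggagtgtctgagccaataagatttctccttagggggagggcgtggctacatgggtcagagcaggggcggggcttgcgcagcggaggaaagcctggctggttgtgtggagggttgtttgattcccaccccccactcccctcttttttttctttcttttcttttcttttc

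After filtering, 2833 of 7344 called nuclei of replicate 1 and 12225 of 17148 of replicate 2 were left, with 8466237 and 48068273 UMIs, that is, counted RNA molecules. Mitochondrial transcripts made up a median of 6.20% of the UMIs of a nucleus in replicate 1, against 0.621% in replicate 2. Only 27 barcodes of kept nuclei occurred in both libraries. Clusters were named from marker genes, and 6 cell types were tested. Adipocyte-like nuclei numbered 1589 and 4639 in replicates 1 and 2, mesothelial-like 248 and 2116, FAP-like (fibro-adipogenic progenitors) 254 and 1327, immune-like 224 and 1088, endothelial-like 67 and 479 and smooth muscle-like 26 and 150. A cluster of 397 and 2377 nuclei led by satellite transcripts had no markers of any type and is called unnamed cluster 2, and a further cluster of 28 and 49 nuclei led by Saa3 and Prg4 also stayed unnamed. A mesothelial-like subcluster, a FAP-like subcluster and an immune-like subcluster each carried 10 of 10 adipocyte markers, with mean Scrublet doublet scores of 0.271, 0.258 and 0.236, against 0.0647, 0.0663 and 0.0736 in the first subcluster of each type.

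The unit of level is CPM, that is, UMIs of the gene for each 1000000 UMIs summed over a group of nuclei, with replicate 1 named before replicate 2. Log2 fold changes set a cell type against the mean of the other 5 types, with their SE, and come from edgeR's quasi-likelihood test with the library as a block and with TMM factors, so that they can differ from ratios of CPM. An adjusted p under 0.05 over all 13578 genes tested was counted as a call. Of the 9 members, 6 had enough UMIs for this test, while Areg, Hbegf and Btc did not pass the filter on low counts. The calls describe the separation of clusters drawn from the same nuclei, although the members were not among the genes used to cluster.

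**Figure D1:**
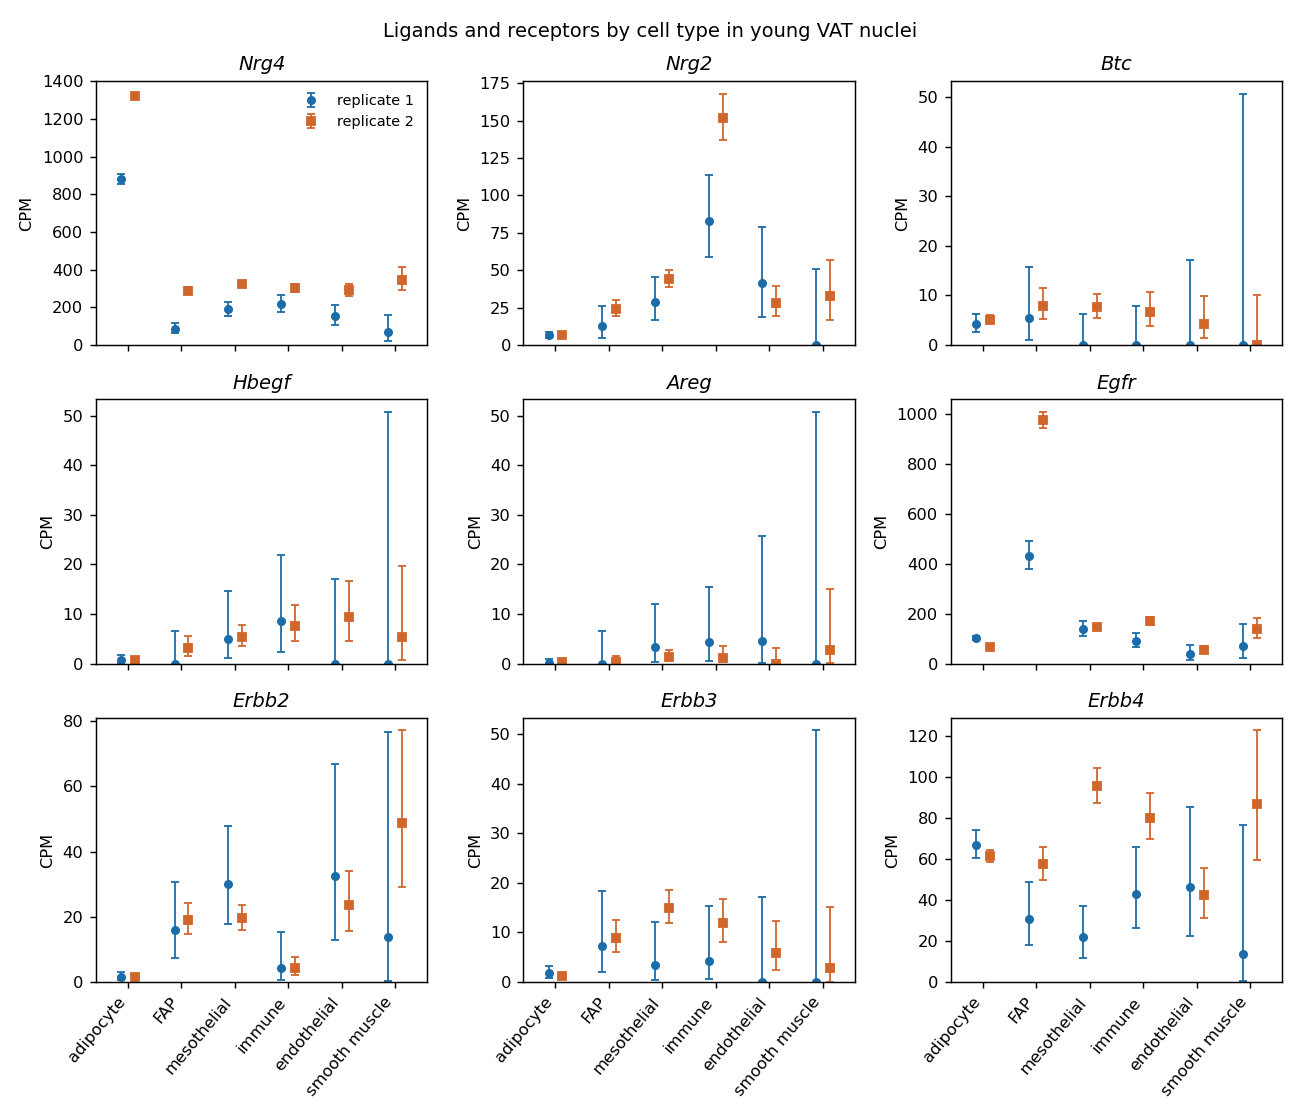
CPM of each ligand and receptor (vertical axes, each from 0) in 6 cell types, with circles for replicate 1, squares for replicate 2 and bars for the exact Poisson 95% interval, which covers counting error only. Nrg4 stood highest in adipocytes at 881 and 1322 CPM, Egfr in FAPs at 432 and 977 CPM and Nrg2 in immune nuclei at 83.2 and 152 CPM, whereas the intervals of Areg, Hbegf and Btc overlapped between most types.

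Among the ligands, Nrg4 was the most abundant by far and was a gene of adipocytes. Adipocytes held it at 881 and 1322 CPM, a mean of 1101 ± 312 (SD, n = 2), and 90.8% and 83.0% of all Nrg4 UMIs of the kept nuclei were in them. They also held 5772141 of the 8466237 UMIs of all genes in replicate 1 and 29777885 of 48068273 in replicate 2. A gene at an even level would thus also have most of its UMIs in adipocytes. The other types held Nrg4 at 87.9 and 289 CPM in FAPs, 189.7 and 324 in mesothelial nuclei, 218 and 302 in immune nuclei, 153 and 292 in endothelial nuclei and 68.7 and 348 in smooth muscle. Both adipocyte values lay above every value of the other types, and replicate 2 was above replicate 1 in all 6 types. Unnamed cluster 2 held Nrg4 at a mean of 528.5 ± 328.5 CPM (SD, n = 2), on 4232 UMIs. This lay above the mean of each named type except adipocytes. Nrg4 was higher in adipocytes by 2.70 on the log2 scale (SE 0.16, adjusted p = 2.2e-23). It was 1 of 2 members called higher there, where 29.2% of all genes tested were called higher. Against each of the 5 other types in turn, the log2 difference was at least 2.49 and all 5 were called, in comparisons in which 28.8% to 54.6% of all genes were called. Among the other types, 0 of the 10 pairs differed in Nrg4 by edgeR's test, although FAPs were lower than the mean of the other 5 types (log2 fold change -0.86, SE 0.20, adjusted p = 0.00092) as the only member called lower, where 5.49% of all genes were called lower. The FAP call was lost without the block (adjusted p = 0.42) and without integration (adjusted p = 0.062). The FAP log2 fold change was -1.21 with the highest doublet scores removed. It was -1.84 with the adipocyte-marked subclusters left out, an alternative added after the data had been seen. Under both settings Nrg4 was also called lower in immune and in mesothelial nuclei. With the nuclei thinned to 1000 UMIs each, 46.9% of adipocytes in replicate 1 (44.4 to 49.4%, exact Clopper-Pearson 95% interval) and 64.7% in replicate 2 held a UMI of Nrg4, against 5.83% and 9.24% of the macrophage-like nuclei of the first immune subcluster. Before thinning, the shares of adipocytes were 75.0% and 94.4%, with median depths of 2946 and 6044 UMIs per nucleus, against 1418.5 and 1767 UMIs in the macrophage-like nuclei.

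Nrg4 outside adipocytes was read beside the adipocyte markers, because nuclei of other types also held these. The CPM of the 10 adipocyte markers together was 11650 and 9343 in adipocytes and between 2474 in FAPs and 4646 in endothelial nuclei in the other types, with none of the 10 markers at 0 in any of the types. In the adipocyte-marked mesothelial subcluster Nrg4 reached 731 and 1039.6 CPM, against 47.0 and 94.9 CPM in the first mesothelial subcluster. The corresponding values were 399 and 937 CPM against 34.1 and 76.8 CPM for FAPs, and 721 and 922 CPM against 54.9 and 91.1 CPM for the macrophage-like subcluster. In each library, every marked subcluster lay between the adipocytes and the first subcluster of its own type. Per 1000 UMIs of the adipocyte markers, Nrg4 had 75.6 and 141.5 UMIs in adipocytes, and 77.7 and 135 in the marked mesothelial, 39.5 and 133 in the marked FAP and 74.7 and 131 in the marked immune subcluster. The first mesothelial, first FAP, macrophage-like and dendritic-like subclusters had between 23.1 and 38.6 in replicate 1 and between 73.6 and 80.5 in replicate 2, resting on 9 to 22 UMIs of Nrg4 in replicate 1. Undivided endothelial nuclei had 38.5 and 62.9 and smooth muscle 18.8 and 121.6. An endothelial subcluster of 30 and 158 nuclei with 9 of 10 adipocyte markers stayed unnamed and was kept, with Nrg4 at 185 and 464 CPM. With the marked subclusters left out, an alternative added after the data had been seen, Nrg4 was higher in adipocytes by 3.91 on the log2 scale (SE 0.16). What part of the Nrg4 of other types came from free RNA or from doublets was not tested.

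The second neuregulin, Nrg2, had another place. It was at 83.2 and 152 CPM in immune nuclei, a mean of 118 ± 48.7 (SD, n = 2), and at 6.58 and 6.85 CPM in adipocytes. In mesothelial nuclei it was at 28.5 and 44.0 CPM, in endothelial nuclei at 41.7 and 27.9 CPM, in FAPs at 12.6 and 24.4 CPM and in smooth muscle at 0 and 32.6 CPM. Both immune values lay above all others. Nrg2 was the only member called higher in immune nuclei (log2 fold change 2.44, SE 0.23, adjusted p = 2.6e-14), where 14.3% of all genes were called higher, and it was called in all 5 pairs with immune nuclei, in which 16.7% to 54.6% of all genes were called. It was lower in adipocytes by -2.03 on the log2 scale (SE 0.29, adjusted p = 8e-09), 1 of 3 members called lower there, where 31.5% of all genes were called lower. Of the 10 pairs without immune nuclei, 3 differed, each of them a pair with adipocytes, namely against FAPs (47.9% of all genes called), endothelial nuclei (39.1%) and mesothelial nuclei (54.0%). In nuclei thinned to 1000 UMIs, 9.82% and 13.1% of immune nuclei held a UMI of Nrg2, and 0.755% and 0.819% of adipocytes, and before thinning 13.4% and 21.6% of immune nuclei did.

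The remaining ligands were scarce. Btc, which binds Egfr and Erbb4, had 357 UMIs in all kept nuclei, with 4.16 and 5.14 CPM in adipocytes and 5.38 and 7.95 CPM in FAPs. Hbegf, a ligand shed in wounded and inflamed tissue, had 128 UMIs, and was at 8.53 and 7.47 CPM in immune nuclei, 0 and 9.29 CPM in endothelial nuclei, 5.04 and 5.35 CPM in mesothelial nuclei and 0.693 and 0.672 CPM in adipocytes. The highest type was thus immune nuclei in replicate 1 and endothelial nuclei, on 11 UMIs, in replicate 2. In both replicates the upper limit of the Hbegf interval of adipocytes, 1.77 and 1.04 CPM, lay below the lower limit in immune nuclei, 2.32 and 4.50 CPM. The immune values rested on 4 and 19 UMIs. Of the 4 in replicate 1, 3 lay in a T and NK cell-like subcluster of 14 nuclei, which held 0 Hbegf UMIs in replicate 2. Areg, known from epithelia and from regulatory T cells, had 35 UMIs, of which 9 were in mesothelial nuclei (3.36 and 1.34 CPM), 5 in immune nuclei (4.27 and 1.18 CPM) and 8 in adipocytes (0.173 and 0.235 CPM). A further 10 Areg UMIs were in unnamed cluster 2. That cluster also held 84 of the 357 Btc UMIs, at a mean of 12.9 CPM, above the mean of every named type. In FAPs of replicate 1 both Areg and Hbegf had 0 UMIs, where the floor of 3 counts is 5.38 CPM. For Areg, the interval of adipocytes lay below that of mesothelial nuclei in replicate 2 (upper limit 0.484 CPM, lower limit 0.538 CPM) and overlapped it in replicate 1. The intervals of Btc overlapped between all 6 types in each replicate. Without the filter on low counts, Hbegf was called lower in adipocytes (log2 fold change -1.98, SE 0.60, adjusted p = 0.0059) and Btc higher there (2.29, SE 0.74, adjusted p = 0.01), the latter against a mean that included smooth muscle with 0 UMIs. At a mitochondrial limit of 5%, which changed the nuclei and left neither smooth muscle nor mesothelial nuclei with enough of them in replicate 1 to be fitted, Btc in adipocytes did not pass the test (0.87, SE 0.63, adjusted p = 0.26).

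Among the receptors, Egfr stood out in FAPs. It was at 432 and 977 CPM there, a mean of 705 ± 385 (SD, n = 2), against 138 and 147 CPM in mesothelial nuclei, 89.6 and 170.2 CPM in immune nuclei, 100.8 and 65.1 CPM in adipocytes, 68.7 and 138 CPM in smooth muscle and 37.1 and 55.8 CPM in endothelial nuclei. Both FAP values were above all others, and those of the libraries differed from each other by more than counting error. Egfr was higher in FAPs by 2.82 on the log2 scale (SE 0.17, adjusted p = 2.4e-23), the only member called higher there, where 10.7% of all genes were called higher. It was called in all 5 pairs with FAPs, by at least 2.31 on the log2 scale, in comparisons in which 8.37% to 47.9% of all genes were called. It was lower in endothelial nuclei (log2 fold change -1.88, SE 0.28, adjusted p = 1.6e-07), the only member called lower there, where 3.38% of all genes were called lower, a call that was lost under scaling by very long neuronal genes (adjusted p = 0.17). Of the 10 pairs without FAPs, 4 differed, and each was endothelial nuclei against another type, namely adipocytes (39.1% of all genes called), immune nuclei (17.2%), mesothelial nuclei (16.3%) and smooth muscle (9.76%). Between FAPs and endothelial nuclei, where Egfr differed by 3.92 on the log2 scale, 15.6% of all genes were called. After thinning to 1000 UMIs, 23.6% and 50.4% of FAPs held a UMI of Egfr, against 5.97% and 5.64% of endothelial nuclei. Before thinning the shares were 43.7% and 68.8% of FAPs at median depths of 1797.5 and 2095 UMIs, and 7.46% and 9.60% of endothelial nuclei at 2030 and 1778 UMIs.

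Erbb2, the partner receptor without a ligand, was low and unevenly spread. It was at 32.4 and 23.7 CPM in endothelial nuclei, 30.2 and 19.5 CPM in mesothelial nuclei, 13.7 and 48.9 CPM in smooth muscle, 16.1 and 19.0 CPM in FAPs, 4.27 and 4.32 CPM in immune nuclei and 1.56 and 1.65 CPM in adipocytes. The values of the first 4 types overlapped, and all of them were above those of immune nuclei and adipocytes in both replicates. In adipocytes Erbb2 was lower by -3.04 on the log2 scale (SE 0.41, adjusted p = 3.3e-09) and in immune nuclei by -1.90 (SE 0.52, adjusted p = 0.0031), where 11.5% of all genes were called lower, a call lost at a mitochondrial limit of 5% (adjusted p = 0.13). It was called higher in smooth muscle (log2 fold change 1.96, SE 0.52, adjusted p = 0.0073), where 5.42% of all genes were called higher, in mesothelial nuclei (1.06, SE 0.36, adjusted p = 0.024), where 13.7% were, and in endothelial nuclei (1.23, SE 0.43, adjusted p = 0.048), where 8.70% were. The smooth muscle value rested on 1 and 18 UMIs. The endothelial call was lost under 7 of the 10 alternatives, with adjusted p between 0.054 and 0.14 in them, and the mesothelial call was lost without the block (adjusted p = 0.082) and under scaling by very long neuronal genes (adjusted p = 0.40).

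Erbb3 was the scarcest receptor, with 262 UMIs in all kept nuclei. It was at 3.36 and 14.9 CPM in mesothelial nuclei, 4.27 and 11.8 CPM in immune nuclei, 7.18 and 8.80 CPM in FAPs, 0 and 5.91 CPM in endothelial nuclei, 0 and 2.72 CPM in smooth muscle and 1.73 and 1.18 CPM in adipocytes. It was called higher in mesothelial nuclei (log2 fold change 1.41, SE 0.52, adjusted p = 0.044) and lower in adipocytes (-1.67, SE 0.70, adjusted p = 0.035). The mesothelial call rested on 2 UMIs in replicate 1 and 78 in replicate 2, and was lost under 6 of the 9 alternatives that could be fitted. The adipocyte call was lost under 4 of the 10, and with replicate 1 alone the log2 ratio was -0.06.

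**Figure D2:**
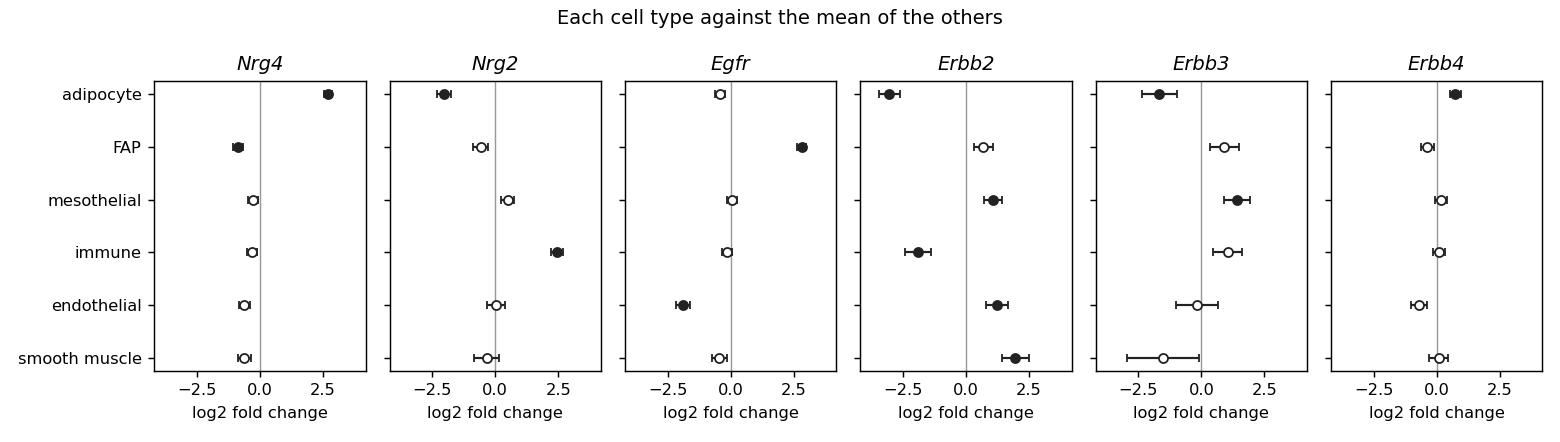
Log2 fold change (horizontal axes) of each of the 6 members tested in each cell type against the mean of the other 5, with SE as bars, filled circles at an adjusted p under 0.05 and open circles otherwise. The rightmost filled circles are Egfr in FAPs at 2.82, Nrg4 in adipocytes at 2.70 and Nrg2 in immune nuclei at 2.44, and the leftmost is Erbb2 in adipocytes at -3.04.

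Erbb4, the receptor of Nrg4, was not read from its CPM alone, since a gene of its length may gather background. Its level was 67.0 and 61.3 CPM in adipocytes, 21.8 and 95.6 CPM in mesothelial nuclei, 30.5 and 57.4 CPM in FAPs, 42.7 and 80.2 CPM in immune nuclei, 46.3 and 42.2 CPM in endothelial nuclei and 13.7 and 86.9 CPM in smooth muscle. The highest named type was adipocytes in replicate 1 and mesothelial nuclei in replicate 2, so the libraries gave no common order. The test called Erbb4 higher in adipocytes (log2 fold change 0.74, SE 0.22, adjusted p = 0.003), but in replicate 2 alone the log2 ratio of the CPM was -0.18, against 1.21 in replicate 1. The call was lost with DESeq2 (log2 fold change 0.60, adjusted p = 0.18) and without the block (0.62, adjusted p = 0.18). It was lost as well at a resolution of 0.3, where the log2 fold change was 0.02 (adjusted p = 0.96). At that resolution a cluster of 163 and 613 nuclei led by Cidea and Dio2 stayed unnamed, outside the adipocytes. The call was kept in the 7 other alternatives fitted. Under one of these, scaling by very long neuronal genes, the log2 fold change was 1.63, but there the median of all genes moved by 0.82 as well.

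Background was measured as the CPM per kb of gene body over 1768 odorant and vomeronasal receptor genes and over 14 very long neuronal genes such as Csmd1 and Cntnap2. The receptor genes were taken as a set that fat uses little, and they were not checked singly. The receptor genes were at 0.0425 and 0.0271 CPM per kb in adipocytes, at values between 0.0496 and 0.102 in the other named types, and at 0.217 and 0.180 in unnamed cluster 2. Per kb, Erbb4 was at 1.47 and 2.11 times this background in adipocytes. In the 5 other named types it was at 0.223 to 0.944 times the background, in each of the 10 values below it. In unnamed cluster 2 Erbb4 was at 200.3 and 192 CPM, above its level in every named type, and there too it was at 0.860 and 0.995 times the background. With the very long neuronal genes as background, Erbb4 was at 1.85 and 1.42 times the background in adipocytes, at 1.42 and 0.538 times in endothelial nuclei, and between 0.180 and 0.792 times in the other 4 types. These 14 genes were not at an even level, since Opcml gave 72.4% and 54.2% of their UMIs in FAPs and Dlg2 gave 45.8% and 61.3% of them in adipocytes. Without these 2 genes, an alternative added after the data had been seen, Erbb4 was at 4.05 and 3.48 times the background in adipocytes, at 0.615 and 0.757 times in FAPs, at 1.57 and 0.650 times in endothelial nuclei and between 0.244 and 0.903 times in the other 3 types. The size of the ratio in adipocytes and in FAPs thus depended on which long genes were taken, and none of the ratios was tested.

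Several of the other members stood well above the odorant and vomeronasal receptor genes where they were high. Per kb, Nrg4 was at 184 and 433 times this background in adipocytes, Egfr at 38.5 and 78.6 times in FAPs and Nrg2 at 6.42 and 9.51 times in immune nuclei. Erbb2 was at 25.8 and 15 times in endothelial nuclei and at 13.1 and 7.52 times in mesothelial nuclei. Erbb3 was at 1.64 and 6.50 times in mesothelial nuclei, 2.65 and 5.94 times in immune nuclei and 4.73 and 5.24 times in FAPs. Of the scarce ligands, Hbegf was at 10.2 and 7.21 times in immune nuclei, on 4 and 19 UMIs, and at 12.8 times in endothelial nuclei of replicate 2, Btc at 2.14 and 4.14 times in adipocytes, and Areg at 4.17 and 1.48 times in mesothelial nuclei, on 2 and 7 UMIs. Nrg2 in adipocytes was at 0.859 and 1.40 times the background and in FAPs at 1.03 and 1.80 times, levels close to it. Egfr was at 14.3 and 14.5 times the background in adipocytes, at a lower CPM than in mesothelial nuclei, where it was at 9.11 and 8.66 times.

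**Figure D3:**
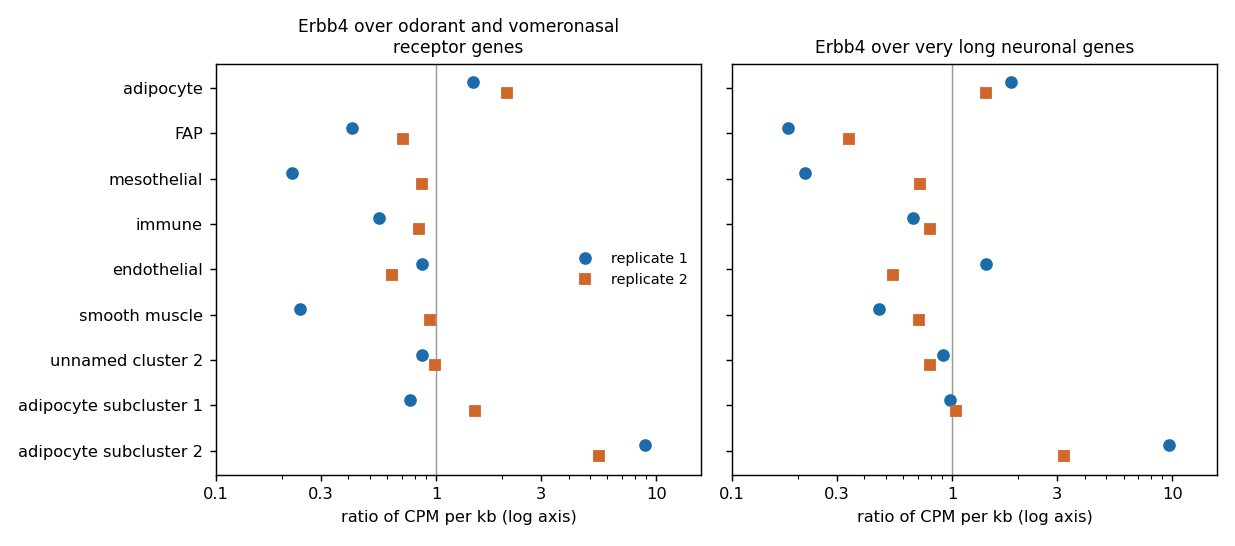
CPM per kb of Erbb4 divided by that of odorant and vomeronasal receptor genes (left) or of very long neuronal genes (right), on log axes, in the cell types, unnamed cluster 2 and the adipocyte subclusters, with circles for replicate 1, squares for replicate 2 and a line at a ratio of 1. Adipocyte subcluster 2 lies at 8.91 and 5.52 on the left and at 9.69 and 3.22 on the right, apart from all other groups.

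Within the adipocytes the level of Erbb4 was higher in 1 subcluster, although 1286 of its 2213 UMIs lay in the other, larger one. Subcluster 2, with 128 and 667 nuclei, held 7 of 8 thermogenic markers and is called thermogenic adipocyte-like, and subcluster 1, with 1461 and 3972 nuclei, held none of the marker lists above the threshold. Erbb4 was at 332 and 143 CPM in the thermogenic subcluster and at 35.7 and 44.6 CPM in subcluster 1, with no overlap. It was higher by 2.33 on the log2 scale (SE 0.19, adjusted p = 1.7e-15), 1 of 2 members of the 5 tested that were called higher, where 4.39% of 14127 genes were called higher. The log2 ratio was 3.18 in replicate 1 and 1.66 in replicate 2. Per kb, Erbb4 was at 8.91 and 5.52 times the odorant and vomeronasal receptor genes in the thermogenic subcluster and at 0.764 and 1.50 times in subcluster 1. Over the very long neuronal genes it was at 9.69 and 3.22 times in the thermogenic subcluster. In subcluster 1 it was at 0.975 and 1.04 times, close to this background. With the very long neuronal genes without Opcml and Dlg2 as background, it was at 20 and 8.62 times in the thermogenic subcluster and at 2.15 and 2.50 times in subcluster 1. The odorant and vomeronasal receptor genes were at 0.0346 and 0.0241 CPM per kb in the thermogenic subcluster and 0.0434 and 0.0277 in subcluster 1. The call was kept in each of the 3 other fits (without the block, with DESeq2 and without the filter on low counts). In nuclei thinned to 1000 UMIs, 20.3% and 10.6% of the thermogenic subcluster held a UMI of Erbb4, against 3.29% and 4.05% of subcluster 1, and before thinning 43.0% and 27.7% against 7.39% and 14.6%.

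Nrg4, the ligand, was also higher in the thermogenic subcluster, by a smaller step. It was at 1266 and 1705 CPM there and at 835 and 1244 CPM in subcluster 1. The values did not overlap, though the lower thermogenic value, 1266 CPM, was close to 1244 CPM. The log2 fold change was 0.51 (SE 0.14, adjusted p = 0.0097), and the log2 ratio was 0.60 in replicate 1 and 0.46 in replicate 2. The call was lost without the filter on low counts (adjusted p = 0.096) and without the block (adjusted p = 1.0). Egfr went the other way, at 75.3 and 32.8 CPM in the thermogenic subcluster and 104 and 71.7 CPM in subcluster 1 (log2 fold change -0.88, SE 0.18, adjusted p = 0.00028), the only member called lower, where 3.88% of all genes were called lower. That call was lost with DESeq2 (adjusted p = 0.078) and without the block (adjusted p = 0.88). Nrg2, at 14.7 and 8.51 against 5.62 and 6.51 CPM, and Btc, at 3.27 and 4.95 against 4.26 and 5.18 CPM, did not pass the test.

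Beside these, the thermogenic list itself chose the name of the subcluster and its levels are a description. Ucp1, the uncoupling protein of thermogenic fat, was at 132.5 and 80.7 CPM in the thermogenic subcluster and 5.23 and 1.21 CPM in subcluster 1. Cidea, a lipid droplet protein, was at 579 and 272 CPM against 20.3 and 13.2 CPM, and Esrrg, a nuclear receptor of oxidative tissue, at 425 and 359 CPM against 17.6 and 21.0 CPM. Ppargc1a, a coactivator of mitochondrial genes, was at 196 and 235.5 CPM against 57.5 and 82.3 CPM. Dio2, which activates thyroid hormone, was at 13.1 and 87.7 CPM against 2.33 and 6.43 CPM, Elovl3 at 47.4 and 20.6 against 10.7 and 5.34 CPM, and Cox8b at 70.4 and 19.4 against 16.5 and 5.78 CPM. Cpt1b was at 0 UMIs in both subclusters.

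**Figure D4:**
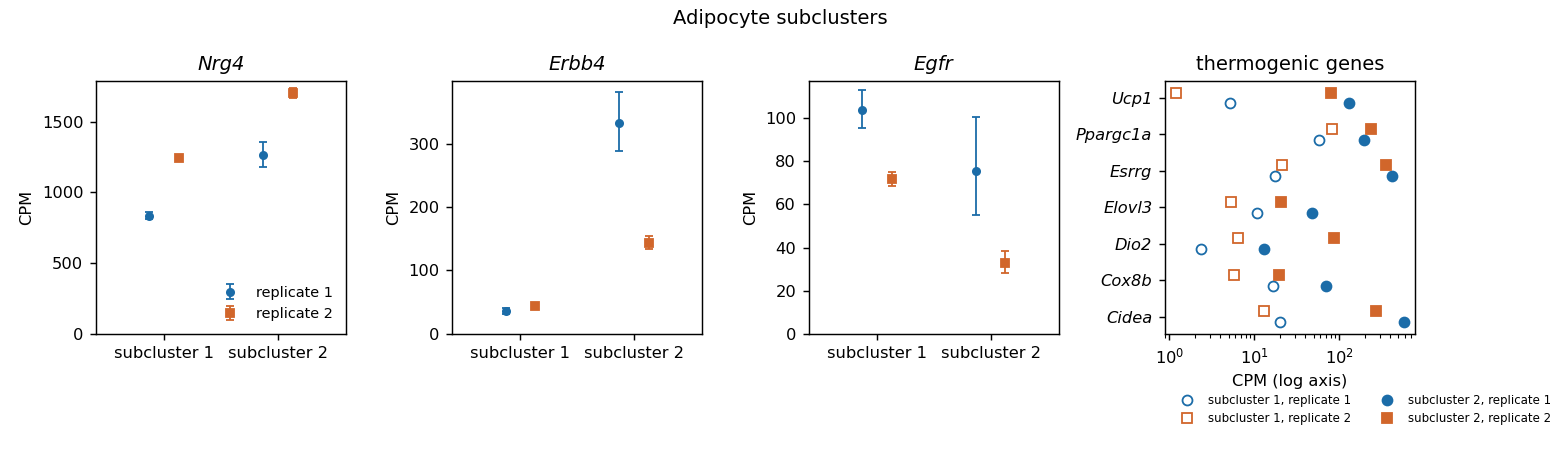
CPM of Nrg4, Erbb4 and Egfr (vertical axes from 0, bars for the exact Poisson 95% interval) and of 7 thermogenic genes (horizontal log axis) in adipocyte subcluster 1 and the thermogenic subcluster 2, with circles for replicate 1 and squares for replicate 2. Erbb4 rises from 35.7 and 44.6 CPM to 332 and 143 CPM, and Egfr falls from 104 and 71.7 CPM to 75.3 and 32.8 CPM.

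Among the 3 immune subclusters tested, Nrg2 and Egfr were both highest in the macrophage-like subcluster of 120 and 649 nuclei. A further macrophage-like subcluster, of 1 and 23 nuclei and too small to test, held 15 UMIs of Nrg2 and 16 of Egfr in replicate 2, or 424 and 452 CPM. Nrg2 was at 155 and 225 CPM in the tested macrophage-like subcluster and at 41.7 and 112 CPM in the dendritic-like one, of 53 and 147 nuclei. Nrg2 was at 27.4 and 54.4 CPM in the adipocyte-marked subcluster of 27 and 133 nuclei. It was higher in the macrophage-like subcluster by 1.68 on the log2 scale (SE 0.29, adjusted p = 9.8e-05). Egfr was at 169.7 and 266 CPM in macrophage-like nuclei, at 0 and 39.9 CPM in dendritic-like nuclei and at 63.9 and 84.1 CPM in the marked ones. It was higher in the macrophage-like subcluster by 2.34 (SE 0.33, adjusted p = 3.7e-06) and lower in the dendritic-like subcluster by -2.35 (SE 0.44, adjusted p = 0.00016). Of the 4 members tested, these were the 2 called higher in macrophage-like nuclei, where 10.3% of 7132 genes were called higher, and Nrg4 was the 1 called lower (-1.76, SE 0.26, adjusted p = 8.7e-06), where 6.17% were called lower. In dendritic-like nuclei, 3 members were called lower, where 10.9% of all genes were, namely Egfr, Nrg4 (-1.73, SE 0.28, adjusted p = 2.3e-05) and Erbb4 (-1.79, SE 0.50, adjusted p = 0.009). The adipocyte-marked subcluster took part in these means with Nrg4 at 721 and 922 CPM, and there Nrg4 (3.49, SE 0.22, adjusted p = 2e-13) and Erbb4 (1.11, SE 0.43, adjusted p = 0.047) were called higher, where 15.9% of all genes were, and Nrg2 lower (-1.45, SE 0.36, adjusted p = 0.0025), where 15.9% were. Since the marked subcluster carried the adipocyte markers, the Nrg4 calls among the immune subclusters are a description. The Erbb4 calls were lost with DESeq2 in dendritic-like nuclei (adjusted p = 0.063) and, in the marked ones, in all 3 other fits (adjusted p from 0.092 to 0.16). Per kb, Nrg2 in macrophage-like nuclei was at 8.73 and 11.4 times and Egfr at 10.4 and 14.7 times the odorant and vomeronasal receptor genes, whereas Erbb4 was at 0.378 and 0.793 times. Erbb4 was at 0.156 and 0.455 times these genes in dendritic-like nuclei and at 2.09 and 1.48 times in the marked ones. After thinning, 16.7% and 16.6% of macrophage-like nuclei held a UMI of Nrg2 and 10.0% and 19.1% a UMI of Egfr, while 0% and 2.72% of dendritic-like nuclei held a UMI of Egfr.

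The subclusters of FAPs and of mesothelial nuclei that could be tested were the first and the adipocyte-marked one of each. Since the marked subclusters carried the adipocyte markers, genes high in adipocytes were likely to be lower in the first subclusters. Genes low in adipocytes were likely to be higher there, so the calls between these subclusters are a description. Egfr was at 469.5 and 1201 CPM in the first FAP subcluster and at 242 and 373 CPM in the marked one (log2 fold change 1.37, SE 0.26, adjusted p = 1.8e-06), the only 1 of 4 members tested that was called higher in the first, where 10.8% of 9298 genes were, and not called without the block (adjusted p = 0.081). Nrg4 was lower in the first FAP subcluster by -3.67 (SE 0.29, adjusted p = 3.8e-33), where 9.31% were called lower. Erbb2 was at 36.3 and 25.3 CPM in the first mesothelial subcluster and at 8.03 and 3.96 CPM in the marked one (2.36, SE 0.83, adjusted p = 0.022), the only 1 of 5 members called higher in the first, where 13.4% of 10851 genes were. Nrg4 was lower in the first mesothelial subcluster by -3.79 (SE 0.27, adjusted p = 8.5e-42), where 11.5% were called lower. The values of Erbb4 were 23.5 and 105 CPM for the first mesothelial subcluster, against 8.03 and 58.7 CPM in the marked one, a difference that did not pass the test (adjusted p = 0.21). Areg had 5 UMIs in the first mesothelial subcluster and 1 in the marked one, too few for a comparison.

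**Figure D5:**
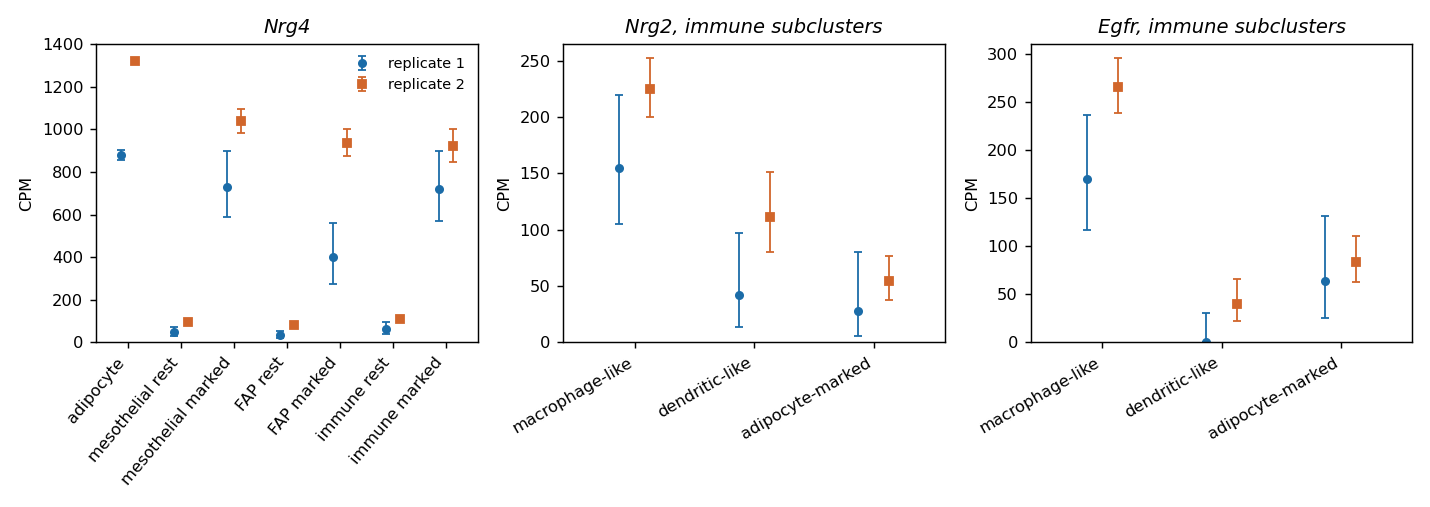
CPM (vertical axes from 0) of Nrg4 in adipocytes and in mesothelial, FAP and immune nuclei split into the adipocyte-marked subcluster and the rest (left), and of Nrg2 and Egfr in immune subclusters (middle and right), with circles for replicate 1, squares for replicate 2 and exact Poisson 95% intervals. Nrg4 is at 399 to 1039.6 CPM in the marked subclusters, and among the 3 subclusters tested Nrg2 and Egfr are highest in macrophage-like nuclei at 155 and 225 and at 169.7 and 266 CPM.

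The genes whose levels were most like those of each member were sought over the 12 sums of 6 types and 2 libraries, by Pearson's r of log2 CPM with a prior count of 2. The points share their libraries and depth, and the r describes these sums only. For Nrg4 they were Ankef1 (0.960), Gpam (0.960), an enzyme of triglyceride synthesis, and Ghr (0.959), the growth hormone receptor. For Nrg2 they were Kctd16 (0.978), P2rx7 (0.954), an ATP-gated channel of macrophages, and Atp2b1 (0.953), and for Egfr they were Sestd1 (0.936), Sdk1 (0.925) and Ggt5 (0.908). For Erbb2 they were Mpzl1 (0.964), Ebf4 (0.962) and Smtn (0.959), for Erbb3 Tut4 (0.967), Atp13a4 (0.964) and Hpse2 (0.962), and for Erbb4, with the lowest likeness of the 6, Washc2 (0.848), Usp32 (0.832) and Eefsec (0.827).

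Around the members, 41 further genes of the pathway were listed, of which 38 could be tested. In FAPs, beside Egfr, 6 of 38 were called higher and 2 lower, where 10.7% and 5.49% of all genes were, with a median log2 fold change of 0.12 against 0.00 over all genes. Among them were Errfi1, a feedback inhibitor of Egfr, at 197 and 207 CPM in FAPs and between 14.2 and 100.5 CPM in the other types (log2 fold change 2.97, SE 0.20, adjusted p = 2.1e-21), Spry1 (1.97, SE 0.39), which restrains ERK signalling, and Cblb (1.32, SE 0.17), a ubiquitin ligase. The early target Egr1 (1.51, SE 0.45) and Rhbdf1 (1.07, SE 0.29), a partner of the shedding protease Adam17, were called higher as well. The 2 called lower, named after their values were seen, were the phosphatase Dusp6 (-1.06, SE 0.34), another feedback gene, and the PI3K subunit Pik3cb (-1.42, SE 0.22). In adipocytes, beside Nrg4, 12 of 38 were called higher and 11 lower, shares close to the 29.2% and 31.5% of all genes (median 0.15 against 0.03 over all genes). The higher ones included the exchange factors Sos2 (0.83, SE 0.16) and Sos1 (0.70, SE 0.18), the PI3K subunits Pik3r1 (1.91, SE 0.15) and Pik3cb (1.79, SE 0.16) with Akt2 (1.55, SE 0.17), the receptor antagonists Lrig1 (1.35, SE 0.20) and Lrig2 (0.92, SE 0.18) with Cblb (0.66, SE 0.16), and the ligand Egf (1.15, SE 0.31). Egf was at 18.2 and 19.9 CPM in adipocytes, against 14.4 and 18.5 CPM in FAPs, the next highest type. In smooth muscle, the lowest type, it was at 0 and 10.9 CPM. In the same lists, named after their values were seen, the feedback genes Spry1 (-2.99, SE 0.50), Spry2 (-1.11, SE 0.23), Errfi1 (-0.88, SE 0.22) and Dusp6 (-0.77, SE 0.27), the kinases Mapk3 (-1.30, SE 0.23) of the ERK arm and Akt1 (-0.88, SE 0.24) of the PI3K arm, and the ligands Nrg1 (-1.72, SE 0.24) and Nrg3 (-1.63, SE 0.26) were called lower. Of the 4 early targets tested, 3 were called lower in adipocytes, where 31.5% of all genes were, and none higher.

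In immune nuclei, beside Nrg2, 8 of 38 were called higher and 9 lower, where 14.3% and 11.5% of all genes were (median -0.18 against -0.02 over all genes), and 6 of the 10 genes of feedback and turnover were among the lower ones. The higher ones included the ligand Nrg1 (0.65, SE 0.23), the adaptor Grb2 (1.19, SE 0.19), Akt1 (0.95, SE 0.24), the phosphatase Dusp6 (2.28, SE 0.25) with the ubiquitin ligase Cbl (1.18, SE 0.17), and the early targets Etv5 (2.20, SE 0.31) and Fos (1.63, SE 0.46). The 9 called lower, named after their values were seen, were the feedback genes Spry1 (-2.60, SE 0.68), Spry2 (-1.97, SE 0.32), Spry4 (-1.54, SE 0.40), Errfi1 (-1.26, SE 0.29), Lrig3 (-1.16, SE 0.31) and Lrig1 (-0.95, SE 0.29), the adaptor Gab1 (-0.83, SE 0.22), the kinase Braf (-0.63, SE 0.19) and the PI3K subunit Pik3r1 (-0.70, SE 0.19). In mesothelial nuclei 5 of 38 were called higher and 3 lower, where 13.7% and 6.58% of all genes were (median -0.35 against 0.00), and 3 of the 4 other ligands tested were among the higher ones. These were Tgfa, a ligand of Egfr at 50.4 and 41.9 CPM there and at 24.8 CPM or less in the other types, Nrg1 (1.10, SE 0.22) and Nrg3 (0.71, SE 0.24), with Egr1 (2.07, SE 0.41) and Spry2 (1.26, SE 0.22) beside them. The 3 called lower there, named after their values were seen, were all genes of feedback and turnover, namely Spry1 (-2.05, SE 0.57), Errfi1 (-1.56, SE 0.28) and Cblb (-0.72, SE 0.19). Tgfa was called higher in immune nuclei too, at 8.53 and 24.8 CPM, and no fold is given for it because the means it was set against included smooth muscle with 0 UMIs. Nrg1 and Nrg3 span 1071 and 1109 kb, and per kb, in a comparison added after the data had been seen, Nrg1 was at 0.774 and 1.04 times and Nrg3 at 0.382 and 0.830 times the odorant and vomeronasal receptor genes in mesothelial nuclei. In immune nuclei Nrg1 was at 0.694 and 1.04 times, and in adipocytes Nrg1 was at 0.244 and 0.597 times and Nrg3 at 0.268 and 0.467 times, so none of these levels stood clearly above the background. In endothelial nuclei 4 were called higher and 2 lower, where 8.70% and 3.38% of all genes were (median -0.05 against -0.04), among the higher ones Spry1 (2.18, SE 0.46), Mapk3 (1.43, SE 0.24), Rhbdf2 (1.38, SE 0.38) and the protease Adam10 (0.66, SE 0.20). In smooth muscle 3 were called higher, where 5.42% of all genes were, Spry1 (3.48, SE 0.52), Errfi1 (1.28, SE 0.33) and Pik3ca (0.74, SE 0.24), and 1 lower, where 2.8% of all genes were (median -0.18 against -0.12), namely Tgfa, which had 0 UMIs there.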

How the data were processed

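Single-nucleus RNA sequencing of 2 young VAT libraries (Singleron GEXSCOPE by the protocol, 10x Genomics by the labels) was used. The authors aligned reads to GRCm39 with CeleScope, and the deposited matrices hold raw UMI counts of 56980 genes, without normalization, and the CeleScope version and annotation are not given in the sources used here. Nuclei were kept above 500 genes and 1000 UMIs and below a mitochondrial share of 15%, which left more nuclei than the study states. Per-nucleus scaled log counts of 1000 variable genes, without 110 genes (members, pathway genes and genes named in the paper), gave 30 components, corrected for library by Harmony in numpy 2.4.6 and clustered by Leiden (leidenalg 0.10.2) on 20 neighbours at a resolution of 0.1. Clusters were named where at least 3 markers and a share of 0.5 of a list exceeded the mean of the other clusters by 1 on the log2 scale and were detected in 5% of nuclei, with rival types weighed at 0.8, the third version of this rule tried after the clusters were seen. Members and lists were chosen with earlier results of these data known.

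Scrublet (scanpy 1.11.5) called 5 and 7 nuclei (0.176% and 0.0573%) and so did not separate doublets, and none were removed. Sums per library and type, with at least 20 nuclei in each library, were tested with edgeR 4.0.16 (TMM, filterByExpr, Benjamini-Hochberg). The library was a block because all types of a library come from 1 tissue specimen, and differences between libraries correlated across 13578 genes with a median r of 0.225 (0.156 to 0.461) over 15 pairs of types. On simulated data, 49% of 2-fold and 96% of 4-fold changes were recovered for the cell types (12556 genes), 13% and 90% for the adipocyte subclusters (13628 genes) and 20% and 98% for the immune subclusters (6686 genes). The simulated counts had a single dispersion for all genes, and their libraries differed only in depth. These shares may therefore not hold for the libraries used here. Named genes were the 9 members, the 3 genes most alike, up to 3 pathway genes called higher per list and type, and the thermogenic list, of which 1 pathway gene is not reported here. Intervals and floors (3 counts) cover counting error only. The deposited read totals per barcode and sequencing saturation tables were not used. Alternatives were DESeq2 1.42.0, no filter, no block, 5% mitochondrial UMIs, 6% highest doublet scores removed, a resolution of 0.3, no integration, all genes as features, scaling by very long neuronal genes, those genes without Opcml and Dlg2 as background, and each library alone.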

Additional observations from a re-analysis of the deposited data

How the results depend on the processing

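The members called over all cell types came to 14 of 36 results (38.9%, against 23.9% of the results of all genes), and without the block, that is, without the pairing by library, to 8 (22.2%, against 14.4%), and since the members were chosen with results known, their share is a description. Over 7 other alternatives with 36 results the count lay between 11 and 15 (20.4% to 27.5% of all genes), and it was 16 of 54 without the filter on low counts (29.6%, against 8.23%) and 13 of 32 at a mitochondrial limit of 5% (40.6%, against 19.9%), where 4 types were fitted. Without the block the count fell from 3 to 1 between adipocyte subclusters, where the share of all genes fell from 8.27% to 0.411%, from 2 to 1 between FAP subclusters, where it fell from 20.1% to 10.5%, and from 66 to 39 of 228 for the pathway genes over the cell types (28.9% to 17.1%, against 23.9% to 14.4%). With DESeq2 it fell from 2 to 1 between mesothelial subclusters, where Erbb2 had no adjusted p and the share of all genes with an adjusted p fell from 25% to 17.6%. Of 184 values of called members under other settings, 149 kept their call, 35 kept their direction without it and 0 turned. With 1 library left out there is no test, and 59 of 60 log2 ratios kept their direction, the exception being Erbb4 in adipocytes, at -0.18 without replicate 1 and 1.21 without replicate 2. The Erbb4 ratio to its background ranged from 5.52 to 8.91 with 1 library left out in the thermogenic subcluster, from 0.223 to 0.868 in mesothelial nuclei and from 0.860 to 0.995 in unnamed cluster 2. In the thermogenic subcluster its mean over the libraries moved from 7.21 to 14.3 with very long neuronal genes without Opcml and Dlg2 as background, an alternative added after the data had been seen. With all 14 very long neuronal genes as background, the ratio in that subcluster was 9.69 in replicate 1 and 3.22 in replicate 2. The shares of nuclei with a UMI, averaged over the libraries, moved without thinning from 55.8% to 84.7% for Nrg4 in adipocytes, from 37.0% to 56.2% for Egfr in FAPs, from 11.5% to 17.5% for Nrg2 in immune nuclei and from 15.4% to 35.4% for Erbb4 in the thermogenic subcluster. Scaling by very long neuronal genes moved the median log2 fold change of all genes by 0.82 in adipocytes, -1.20 in FAPs, 0.72 in endothelial, -0.60 in mesothelial and 0.17 in smooth muscle nuclei, and DESeq2 moved it by -0.24 in adipocytes and 0.105 in immune nuclei, and no called member turned under either. The causes were not tested. Among the cell types tested, depth limits smooth muscle most, where 3 counts are 41.2 CPM in replicate 1 and 8.15 CPM in replicate 2.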
